A study of Mus musculus with 6 samples.

Results

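C1qa, C1qb and C1qc encode the A, B and C chains of complement C1q. These 3 genes, chosen by name, are 3 of the 32285 genes of a single-cell count table from mouse sciatic nerve, and their levels are described across the deposited cell types, libraries and diets. C1q is the recognition subunit of C1, the first component of the classical complement pathway. Each chain has a collagen-like stalk and a globular head, and the chains assemble into a bouquet-shaped hexamer that binds antibody complexes, dying cells and debris and activates the proteases C1r and C1s. Outside the liver-made bulk of complement, C1q is made mainly by macrophages and microglia, and in nerve and brain it is known for tagging debris and synapses for uptake.

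The cells came from sciatic nerves of 23-week-old C57BL6/J mice fed a diet labelled SD or HFD; no other genotype or agent is named for either group. Cells were freed with trypsin and collagenase and enriched with magnetic beads against O4, a sulfatide antigen of Schwann cells and oligodendrocytes, so macrophages were not the cells selected for and their share of a library may depend on the enrichment. The labels list 3 samples on each diet, and cells were analysed from 3 SD libraries and 2 HFD libraries; HFD replicate 3 was not analysed here. Whether each sample was a separate mouse is not stated. The p-values therefore reflect only how far these libraries spread, which may be technical.

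The table held 364 cells, 201 from SD and 163 from HFD libraries, with 37744 to 349450 UMIs (unique molecular identifiers, 1 per captured transcript) per library. No cell barcode occurred in more than 1 library. The deposited names call 143 cells Macrophages: 29, 24 and 8 in SD replicates 1, 2 and 3, and 40 and 42 in HFD replicates 1 and 2. All 18 macrophage markers examined, C1q left out, were counted in these cells, at a summed 24551 ± 4127 CPM (UMIs of a gene or list among 1000000 UMIs of the cells; SD, n = 5 libraries), against 164 CPM in the cells named SCP. Markers of mast cells and mural cells were at 0 in the Macrophages, T and NK markers had 1 UMI, and neutrophil markers were at 175 CPM. Monocyte markers, among them F13a1, which the resident macrophage list also holds, summed to 1182 ± 611 CPM, and the myelin list to 752 ± 738 CPM, with 2050 CPM in the highest library; their part in the C1q results was not tested. The other deposited names fit their markers less well. The cells named SCP carried the summed myelin list at 50426 CPM, and those named nmSC carried the fibroblast list at 52758 CPM. Those named repairSC carried lists of several types. The nonmyelinating Schwann list stood there at 27147 ± 29561 CPM (SD, n = 5 libraries). The neutrophil list stood at 25500 ± 56726 CPM and the macrophage list at 7722 ± 8256 CPM. These means were uneven, since each list was at 0 in its lowest library. The highest library was at 65632 CPM for the nonmyelinating Schwann list and 126974 CPM for the neutrophil list. SD replicate 1 and HFD replicate 1 held only 2 repairSC each. The Schwann lineage list was at 261 CPM, from 1 UMI. All these cells are called here by their deposited names only.

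The 3 genes lie side by side on the minus strand of chromosome 4 (GRCm38/mm10, GENCODE vM21). C1qa (ENSMUSG00000036887.5) spans 136895917 to 136898803, C1qc (ENSMUSG00000036896.5) spans 136889804 to 136893065, and C1qb (ENSMUSG00000036905.8) spans 136880129 to 136886187. No other gene is annotated within the 18675 bases they cover. Each has 3 exons, and their coding sequences are 735, 759 and 738 bases long for C1qa, C1qb and C1qc. The longest exact stretch shared by any pair of the transcripts was 15 bases, between C1qb and C1qc, so reads of 1 chain were not near copies of another.

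The collagen-like stalk is written in the coding sequence as a glycine codon (GGN) followed by a pair of other codons, over and over. All 3 members share this feature. The longest unbroken run held 16 such repeats in C1qa, 29 in C1qb and 16 in C1qc. The first 10 repeats of each run are shown, from GENCODE vM21 coding sequence, with the glycine codons in capitals.

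C1qa: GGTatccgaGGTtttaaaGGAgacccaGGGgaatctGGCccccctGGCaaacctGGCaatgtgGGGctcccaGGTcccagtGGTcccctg

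C1qb: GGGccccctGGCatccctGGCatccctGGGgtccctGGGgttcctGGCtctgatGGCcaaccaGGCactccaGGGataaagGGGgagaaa

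C1qc: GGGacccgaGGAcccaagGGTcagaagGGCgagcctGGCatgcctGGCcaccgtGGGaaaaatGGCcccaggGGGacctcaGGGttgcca

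Because the 3 genes were counted together in the same cells, the sequence before their starts is also shown. RefSeq promoters (GRCm38.p6) were matched for C1qb and C1qc. The bases printed lie before the annotated start in both RefSeq and GENCODE: 250 bases for C1qb at chr4:136886201-136886450 and 99 bases for C1qc at chr4:136893066-136893164, both minus strand. Capitals mark matches, on either strand, to GAGGAA, a core bound by the myeloid factor PU.1 (gene Spi1) and related factors, or to TGCTGA, part of the site of MAF factors.

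C1qb: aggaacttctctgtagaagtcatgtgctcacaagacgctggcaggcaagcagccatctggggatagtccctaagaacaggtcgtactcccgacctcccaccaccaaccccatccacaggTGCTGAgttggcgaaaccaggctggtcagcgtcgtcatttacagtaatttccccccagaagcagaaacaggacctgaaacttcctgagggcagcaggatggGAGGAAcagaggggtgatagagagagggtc

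C1qc: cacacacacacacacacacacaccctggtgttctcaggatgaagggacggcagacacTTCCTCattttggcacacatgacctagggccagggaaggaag

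In the 300-base windows, C1qb held 1 match to the PU.1 core and 1 to the MAF part, and C1qc held 1 PU.1 core on the opposite strand and no MAF part. The PU.1 core occurs in 28.3% and the MAF part in 19.5% of the 32851 promoters of that length, so both are common, and the matches are given as a description. Neither window held the spaced core of the interferon-stimulated response element (in 3.44% of promoters) or the TATA box letters TATAAA (in 13.6%), searched on both strands. No motif overlapped another.

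In the Macrophages, C1qa was counted highest of the 3 chains, at 4311 ± 958 CPM (SD, n = 5 libraries), followed by C1qb at 2950 ± 634 CPM and C1qc at 2664 ± 736 CPM. The method counts transcripts at their 3' ends and was not scaled by length. Divided by transcript length, the mean levels were 4145, 2711 and 2214 CPM per kilobase. The transcripts are 1040, 1088 and 1203 bases long, longer as the level falls, so this division could not change the order. The SDs of C1qb and C1qc over libraries overlap, but both chains were counted in the same libraries. C1qb was above C1qc in SD replicates 1 and 2 and in both HFD libraries. In SD replicate 3, which held 1 macrophage of at least 5000 UMIs, C1qc was above C1qb (3618 against 2774 CPM). The order of C1qb and C1qc was not tested. C1qa was the highest chain in each of the 5 libraries.

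C1qa stood at 4976, 4494 and 5428 CPM in SD replicates 1, 2 and 3 and at 3429 and 3228 CPM in HFD replicates 1 and 2. Both HFD libraries were below every SD library. C1qb stood at 3889, 3018 and 2774 CPM on SD and 2951 and 2118 CPM on HFD, and the groups overlapped, since HFD replicate 1 was above SD replicate 3. C1qc stood at 3213, 2207 and 3618 CPM on SD and 2454 and 1828 CPM on HFD, and HFD replicate 1 was above SD replicate 2. The value of SD replicate 3 rests largely on 1 cell, which held 7121 of the 8291 macrophage UMIs and 92 of the 98 C1q UMIs of that library.

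**Figure D1:**
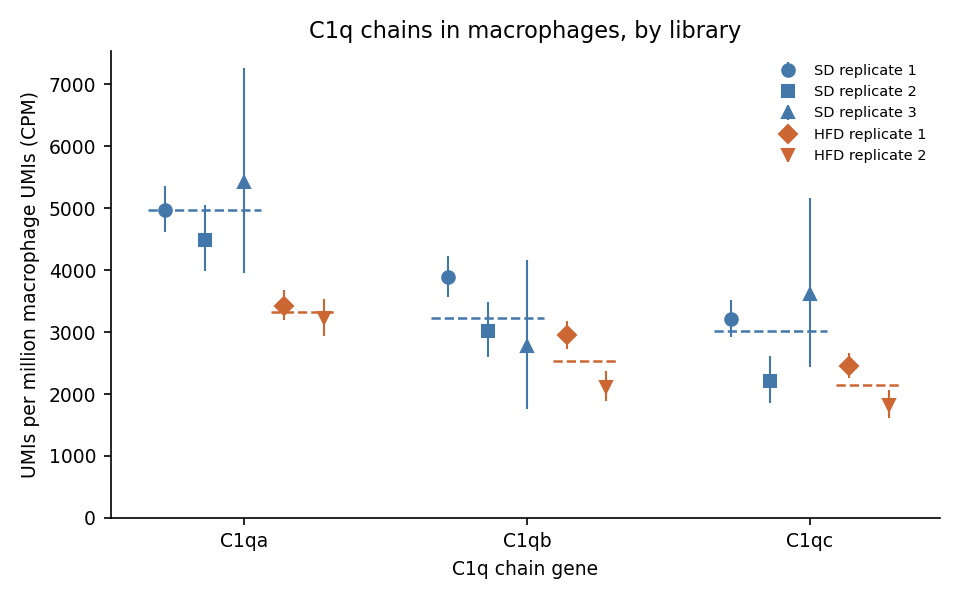
Level of each C1q chain in the macrophages, in CPM, by library. Points are libraries (blue SD, orange HFD), vertical lines are 95% Poisson intervals that cover counting error only, and dashed lines are diet means. For C1qa both HFD libraries (3429 and 3228 CPM) lie below all 3 SD libraries, while for C1qb and C1qc the diets overlap.

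The diet contrast was tested on UMIs summed per library, in the 4 libraries with at least 10 macrophages (SD replicates 1 and 2, HFD replicates 1 and 2). On the scale of that fit C1qa stood at 6175 and 5370 CPM on SD and 4017 and 3804 CPM on HFD. No chain passed the test, and all 3 fitted values were below 0. The log2 fold change, HFD over SD, was -0.56 ± 0.20 (SE) for C1qa (edgeR quasi-likelihood test, Benjamini-Hochberg adjusted p = 0.758; unadjusted p = 0.0148). It was -0.50 ± 0.24 for C1qb (edgeR adjusted p = 0.790) and -0.40 ± 0.26 for C1qc (edgeR adjusted p = 0.878). The unadjusted 95% intervals ran from -0.99 to -0.13 for C1qa, from -1.03 to 0.02 for C1qb and from -0.97 to 0.16 for C1qc.

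Of 2108 genes tested in macrophages, 0.0474% were called, and 6.07% had an unadjusted p under 0.05, so 1 of 3 chains at that level is to be read against that share. Every HFD library was below every SD library for 18.2% of the genes in the 4-library fit and for 5.39% of 2302 genes when SD replicate 3 was added, which is the background for the non-overlap of C1qa. With SD replicate 3 included, the log2 fold changes were -0.46, -0.29 and -0.36 for C1qa, C1qb and C1qc (edgeR adjusted p = 0.999 for each). Without SD replicate 1, that of C1qb was -0.24 and that of C1qc was -0.03.

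The libraries carry project numbers in the folder names of the library key, 4101 for SD replicates 1 and 2 and HFD replicate 1, and 4130 for SD replicate 3 and HFD replicate 2. Within 4101 the log2 ratio of CPM, HFD over SD, was -0.47 for C1qa, -0.23 for C1qb and -0.14 for C1qc. Within 4130, with 1 library on each diet, it was -0.75, -0.39 and -0.99, and the SD library there is replicate 3, whose C1q UMIs come mostly from 1 cell.

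Over all cells of a library, with the mix of cell types left in, the fitted direction was the opposite. C1qa stood at 2822, 1935 and 1178 CPM in the SD libraries and at 2997 and 1778 CPM in the HFD libraries, on the scale of that fit, so the diets overlapped. The log2 fold change was 0.26 ± 0.46 for C1qa (edgeR adjusted p = 0.971), 0.46 ± 0.55 for C1qb and 0.42 ± 0.50 for C1qc (edgeR adjusted p = 0.954 for both). Of 5510 genes 0.0907% were called, none of them a C1q chain; 4.39% had an unadjusted p under 0.05, and 9.44% had every HFD library below every SD library. The Macrophages' share of a library's UMIs was 48.4%, 39.9% and 22.0% on SD and 64.0% and 45.7% on HFD; the part of this share in the difference between the fits was not tested. Without HFD replicate 1, all 3 all-cell values were below 0, at -0.13, -0.18 and -0.14.

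At least 1 chain was counted in 128 of the 143 macrophages (89.5%; exact 95% interval 83.3% to 94.0%, counting error only). Each chain alone was counted in 76.2% (C1qa), 77.6% (C1qb) and 76.2% (C1qc) of them. The median depth of the macrophages was 1064 UMIs. In the SCP cells, which should lack these genes, 4 of 60 (6.67%) had a C1q UMI at a median depth of 4230 UMIs, each a single UMI. Detection in macrophages was thus far above that background at a lower depth.

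Detection was lowest in the shallowest cells. Under 500 UMIs, 19 of 28 macrophages had a C1q UMI (67.9%), and 84.8% would have one if C1q were spread evenly at the rate of each library. From 500 to 999 UMIs it was 92.5% of 40 cells, from 1000 to 2499 UMIs 92.9% of 14, from 2500 to 4999 UMIs all 5 cells, from 5000 to 9999 UMIs 97.1% of 35, and from 10000 UMIs 95.2% of 21. All 3 chains together were counted in 14.3%, 55.0%, 71.4%, 100%, 97.1% and 90.5% of the cells of these bins, so the deepest bin lay below the bin before it. The any-chain share was below that of an even rate in every bin except that of 2500 to 4999 UMIs. SD replicate 3 had the shallowest macrophages, with a median of 147.5 UMIs.

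**Figure D2:**
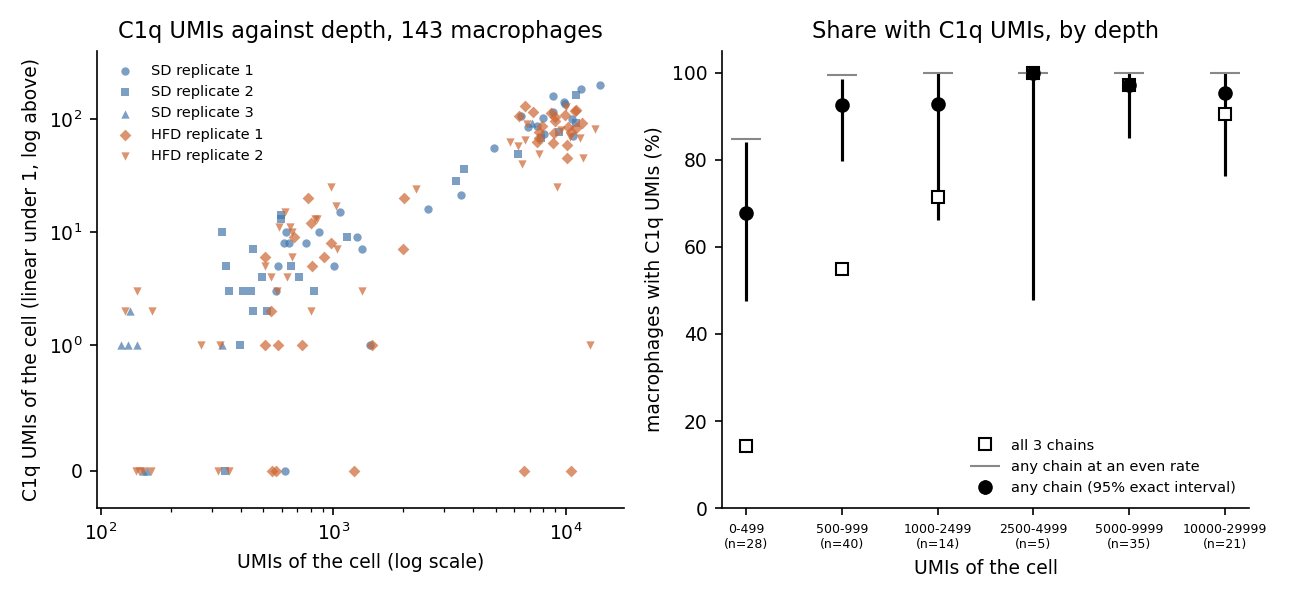
Left, C1q UMIs against all UMIs of each of the 143 macrophages (log axes, with 0 drawn below 1; marker shape gives the library, blue SD and orange HFD). Right, share of macrophages in each depth bin with any chain (filled, 95% exact interval), with all 3 chains (open) and the any-chain share at an even rate (dash). The share with any chain is 67.9% under 500 UMIs and 97.1% from 5000 to 9999 UMIs; 3 deep cells at 0 or 1 C1q UMI stand apart on the left.

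To compare cells at 1 depth, each cell was thinned to 1000 UMIs, which left out 68 of the 143 macrophages and 3 of the 60 SCP cells. A C1q UMI was then expected in 93.8% of the macrophages and 1.97% of the SCP cells. By chain the macrophage shares were 88.4% for C1qa, 84.8% for C1qb and 84.4% for C1qc. By library the any-chain share was 98.5% in SD replicate 1 (21 cells) and 99.99% in SD replicate 2 (8 cells), and 87.6% in HFD replicate 1 (27 cells) and 94.4% in HFD replicate 2 (18 cells). SD replicate 3 kept 1 cell. Unthinned, the any-chain shares were 96.6%, 95.8% and 75.0% on SD and 87.5% and 85.7% on HFD. No test was made of these shares, and the groups hold few libraries.

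The 3 chains were counted together. Of the 143 macrophages, 94 held all 3 chains, 13 held 2, 21 held 1 and 15 held none. C1qb was counted in 98 of the 109 cells with C1qa and in 13 of the 34 without it. C1qc was counted in 101 of the 109 cells with C1qa and in 8 of the 34 without it. Both contrasts mix depths, since 29 of the 34 cells without C1qa had under 1000 UMIs. Under 1000 UMIs, C1qb was counted in 30 of 39 cells with C1qa and in 12 of 29 without it. For C1qc these counts were 32 of 39 and 7 of 29. Only 5 cells of at least 1000 UMIs lacked C1qa. The part of depth in these counts was not tested. The 34 macrophages with 1 or 2 chains had a median of 514 UMIs, and none had more than 10 C1q UMIs. Of these 34, 4 had at least 1000 UMIs, and 1 of the 4 was an HFD replicate 2 cell of 12688 UMIs with a single C1qa UMI. Of the 76 macrophages with at least 10 C1q UMIs, 75 held all 3 chains, and among the 56 of at least 5000 UMIs, 53 did.

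Between libraries the chains also kept a similar ratio, and between cells it varied more. C1qa made up 43.4% ± 3.3 (SD, n = 5 libraries) of the C1q UMIs of a library, C1qb 29.9% ± 3.9 and C1qc 26.6% ± 2.9. In the 61 macrophages with at least 20 C1q UMIs, the SD of the share between cells was 8.37 percentage points for C1qa, 9.09 for C1qb and 7.51 for C1qc. Binomial sampling of these counts alone would give 6.29, 5.93 and 5.61 points. By cell the shares ran from 16% to 66.7% for C1qa, from 9.09% to 60% for C1qb and from 5% to 52.6% for C1qc. These cells are pooled over 5 libraries whose own shares ran from 38.8% to 46.2% for C1qa, 23.5% to 33.4% for C1qb and 22.7% to 30.6% for C1qc, so the spread between cells includes that between libraries.

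Across macrophages of at least 1000 UMIs, the level of 1 chain was higher where that of another was in each library with at least 10 such cells. Spearman's rho of UMIs per UMI of the cell lay between 0.45 and 0.60 in SD replicate 1 (21 cells), between 0.75 and 0.79 in HFD replicate 1 (27 cells) and between 0.58 and 0.86 in HFD replicate 2 (18 cells). Over cells of at least 5000 UMIs, rho lay between 0.35 and 0.49 in SD replicate 1 (13 cells), between 0.67 and 0.80 in HFD replicate 1 (23 cells) and between 0.43 and 0.86 in HFD replicate 2 (14 cells). The lowest values, in SD replicate 1 and HFD replicate 2, were those of C1qb with C1qc. The points of a library share its depth and handling, and the values describe these cells.

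**Figure D3:**
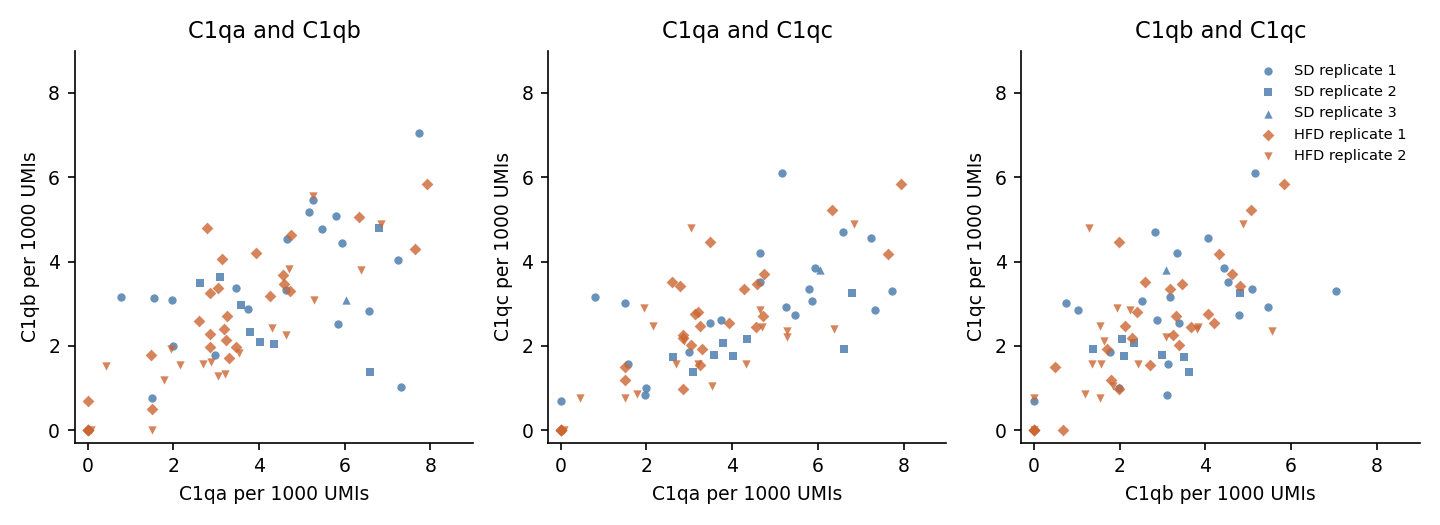
UMIs of 1 C1q chain per 1000 UMIs against those of another in the 75 macrophages of at least 1000 UMIs; each point is a cell, with shape for the library and colour for the diet (blue SD, orange HFD). The chains rise together, with Spearman's rho from 0.45 to 0.86 by library and pair (from 0.35 over cells of at least 5000 UMIs), and the cells without C1q lie at the origin.

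Among the 56 macrophages of at least 5000 UMIs, C1q was either high or nearly missing. In 53 of them the 3 chains summed to 25 to 199 UMIs, or 2739 to 19596 CPM, a 7.15-fold range. By library the median over all deep cells was 12981 CPM in SD replicate 1 (13 cells), 8189 in SD replicate 2 (5 cells), 12920 in SD replicate 3 (1 cell), 8696 in HFD replicate 1 (23 cells) and 6514 in HFD replicate 2 (14 cells). The ranges of the libraries overlapped. The other 3 cells held 0, 0 and 1 C1q UMI, and all 3 came from HFD libraries, 2 from replicate 1 and 1 from replicate 2.

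These 3 cells were unlike each other. The genes named for them were chosen after their values were seen. The first, with 6608 UMIs, carried the macrophage list at 3178 CPM against 9862 to 51132 CPM in the 53 other deep cells, had no UMI of Apoe or Csf1r, and held 0% mitochondrial UMIs. The second, with 10557 UMIs, carried the list at 30217 CPM with 212 Lyz2 UMIs, and also 14 UMIs of Ccr2, the chemokine receptor of inflammatory monocytes, 9 of Chil3 and 19 of Fn1. Chil3 and Fn1 were at 0 in all 53 others. The third, with 12688 UMIs and 1 C1qa UMI, had 12 Ccr2 and 20 Csf1r UMIs, 4 of Pf4, and none of Trem2 or Mertk, a lipid receptor and an engulfment receptor of macrophages, each of which was also at 0 in at least 1 of the 53 others. Without these 3 cells, which were left out for their C1q count, C1qa stood at 3714 CPM in HFD replicate 1 and 3530 CPM in HFD replicate 2, C1qb at 3196 and 2321 CPM and C1qc at 2658 and 2003 CPM. For C1qa both HFD libraries were still below every SD library, of which the lowest was at 4494 CPM. For C1qb, HFD replicate 1 was then above SD replicate 2 and, as before, above SD replicate 3. For C1qc it was above SD replicate 2, as before. The part of these cells in the diet contrast was not tested.

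**Figure D4:**
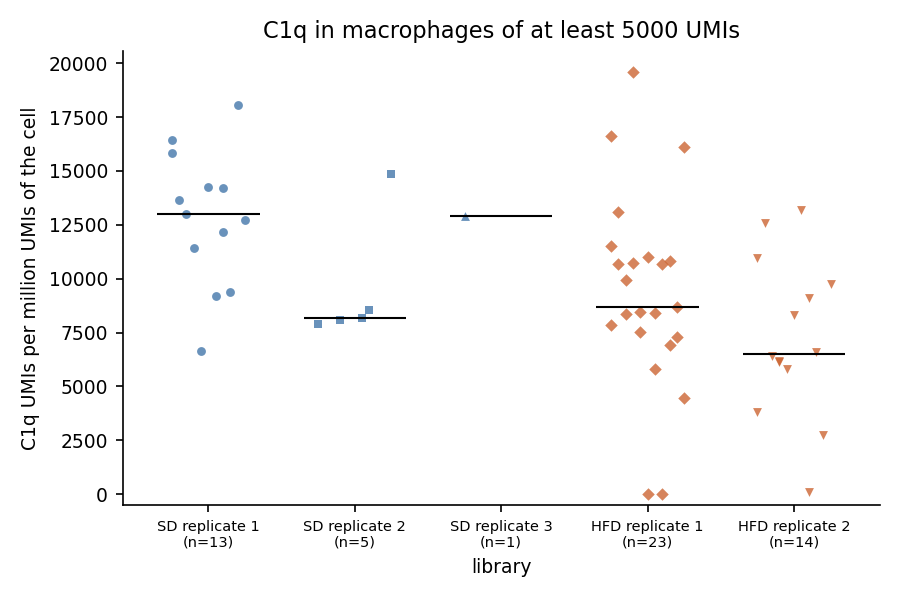
C1q level (3 chains summed, CPM) in each macrophage of at least 5000 UMIs, by library, with the library median as a line; points are spread sideways for view only. Medians run from 6514 CPM in HFD replicate 2 to 12981 CPM in SD replicate 1, the libraries overlap, and 3 HFD cells lie at or near 0.

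Outside the Macrophages, few cells held C1q. Of 5686 C1q UMIs, 5446 (95.8%) were in the Macrophages and 240 (4.22%) in 15 of the 221 other cells. Per chain the Macrophages held 96.3% of C1qa, 95.4% of C1qb and 95.4% of C1qc UMIs. By deposited name the 3 chains summed to 94 UMIs in the 92 mySC, 141 in the 45 repairSC, 4 in the 60 SCP and 1 in the 24 nmSC. C1qb and C1qc were at 0 in nmSC, where 3 counts would correspond to 31.9 CPM. Since the deposited types were clustered on these cells' genes, the difference between types is a description with no test.

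Nearly all of the outside UMIs sat in 7 cells with 3 or more of them, which held 231 (96.2%). The 2 highest held 182 UMIs: a repairSC of HFD replicate 2 with 108 C1q UMIs and 16 of the 18 macrophage markers, and a mySC of HFD replicate 1 with 74 C1q UMIs and 17 of the 18. Their C1q levels, 14791 and 7269 CPM, lay within the range of the deep macrophages, and they held 123 and 242 UMIs of Apoe and only 2 and 1 UMIs of the myelin list. The other 5 came from SD replicate 1. In the 7 cells the chain shares were 36.4% C1qa, 33.8% C1qb and 29.9% C1qc, and 6 of the 7 held all 3 chains.

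One of the 7, a mySC of 911 UMIs with 3 C1q UMIs, also carried 42 UMIs of the myelin list and 12 of the macrophage list. Whether it held RNA of more than 1 cell was not tested. The 5 cells with at least 300 UMIs of S100a9, a neutrophil gene, held 2 C1q UMIs in all, both in 1 cell. Pooled over all 221 cells outside the Macrophages, C1q stood at 418 CPM, against 9356 CPM in the Macrophages. The 214 of these cells with fewer than 3 C1q UMIs, a set defined by that count, held 9 UMIs.

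**Figure D5:**
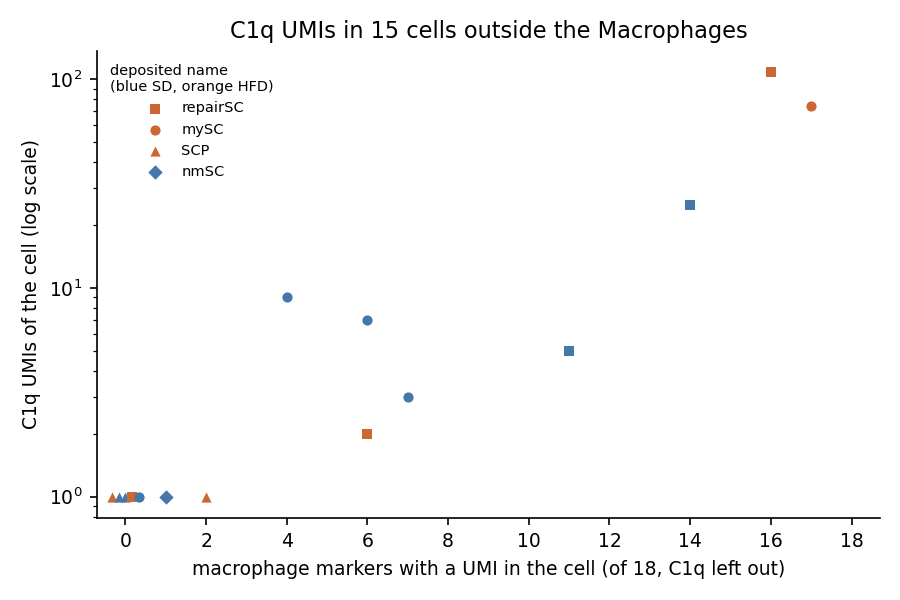
C1q UMIs (3 chains summed, log axis) against the number of 18 macrophage markers, C1q left out, with a UMI in the same cell, for the 15 cells outside the Macrophages that hold C1q; shape gives the deposited name and colour the diet, and tied points are spread slightly sideways. The cells with 108 and 74 C1q UMIs hold 16 and 17 markers, and the cells with 1 C1q UMI hold 0 to 2.

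The proteases that C1q activates were hardly counted in the Macrophages. In the Macrophages C1ra had 2 UMIs, and C1rb, C1s1, C1s2 and Serping1, the C1 inhibitor, had 0; 3 counts would correspond to 5.15 CPM. The nmSC, which carried fibroblast markers, had 5 UMIs of C1ra, 35 of C1s1 and 62 of Serping1 and 1 UMI of C1q. C4b, cleaved by C1s, had 28 UMIs in 15 macrophages, C3 had 1 UMI and C2 had 0. Cfp, which encodes properdin of the alternative pathway, had 62 UMIs. All 7 genes of the terminal pathway were at 0. Of the 8 genes of the lectin list, Colec12 (38 UMIs) and Fcna (13 UMIs) were counted, and their part in the lectin pathway was not tested.

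Receptors were counted at lower levels than C1q. The 8 receptors of C3 and C5 fragments summed to 1115 ± 282 CPM (SD, n = 5 libraries), led by C5ar1 (580 ± 252 CPM), C3ar1 (362 ± 87 CPM), Itgam (82.4 CPM) and Itgb2 (68.7 CPM). The 15 regulators summed to 876 ± 339 CPM, among them Cr1l at 47.5 CPM. Proteins reported to bind C1q summed to 785 ± 359 CPM over 8 genes, led by Calr (calreticulin), Cd93, Lrp1 and Lair1 at 194, 188, 138 and 128 CPM. The 18 genes of the C1q/TNF family outside complement, which share the globular head, summed to 23.1 CPM.

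None of these genes was called for diet in macrophages by edgeR. Of the receptors, 4 were tested, 2 above 0 and 2 below, with a median log2 fold change of 0.18. Of the C1q binding proteins, 5 were tested, 1 above 0 and 4 below (median -0.20). Of the lectin list only Colec12 was tested, at -2.86 ± 0.67 (edgeR adjusted p = 0.327), with 112, 227 and 0 CPM on SD and 17.9 and 27.6 CPM on HFD. The median over all 2108 genes was 0.01, and that of the 3 chains was -0.50. The 18 macrophage markers split into 8 above 0 and 10 below (median -0.15), the 9 resident macrophage genes tested into 5 and 4 (median 0.20) and the 7 MHC class II genes into 6 and 1 (median 0.15).

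Factors known to bind myeloid promoters were counted at a summed 4704 ± 922 CPM over 11 genes. Maf (1498 ± 444 CPM) was highest, followed by Mef2c (834 ± 143 CPM) and Runx1 (594 ± 202 CPM), by their means over libraries. Spi1, which encodes PU.1, was at 254 ± 156 CPM. Of the 10 tested for diet, 5 were above 0 and 5 below, and none was called.

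Among the 10 genes most like C1q over 22 sums of a library and a deposited type, by Pearson's r of log2(CPM + 50), were Fcrls (0.984), Pf4 (0.979), Ly86 (0.976), Mrc1 (0.975), F13a1 (0.974), Mef2c (0.973), C3ar1 (0.970), Ccl24 (0.963) and Fcgr3 (0.960), of 1836 genes. The points share libraries and the contrast of Macrophages with the other types, so r mainly reads which genes were counted in Macrophages; 86.0% to 96.1% of the UMIs of these genes lay there. With a pseudocount of 200 CPM, 6 of the 10 remained among the first 10.

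Within the macrophages the order was different. Over cells of at least 1000 UMIs in SD replicate 1 (21 cells), HFD replicate 1 (27) and HFD replicate 2 (18), the mean Spearman's rho with the summed C1q level was highest for Apoe (0.62), the lipid carrier apolipoprotein E, then mt-Co3 (0.53), Selenop (0.53), Itm2b (0.52), Fcer1g (0.52), Tmbim6 (0.51), Rnase4 (0.50) and Txnip (0.48). Apoe ranged from 0.43 to 0.75 by library. The median of 719 genes was 0.08, and the lowest were the ribosomal protein genes Rps15 (-0.40) and Rpsa (-0.38).

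Resident macrophage, monocyte and antigen presentation genes spread over much of the ranking. Gas6 (0.35, rank 50 of 719), Folr2 (0.33, rank 54), F13a1 (0.28), Mrc1 (0.24), Cd163 (0.17), Clec10a (0.08) and Cbr2 (0.003) were above 0, and Retnla was at -0.11. Ccr2 was at 0.22, Cd74 at 0.24, H2-Ab1 and H2-Eb1 at 0.27 each and H2-Aa at 0.14. Among the factors, Maf was at 0.41, Mef2c at 0.16 and Spi1 at 0.03. All are means over 3 libraries, in which a weak value is no finding. Most of these genes were counted at few UMIs per cell, but Cd74, H2-Aa, H2-Ab1 and H2-Eb1 had 3820 to 8816 UMIs in the macrophages.

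Macrophages of at least 1000 UMIs were also split by C1q count: 3 cells with 0, 4 with 1 to 4 and 68 with 5 or more C1q UMIs. The macrophage list stood at 19254, 14245 and 24010 CPM in these ranges, the resident list at 1142, 3015 and 5165 CPM, the monocyte list at 2937, 1005 and 1404 CPM and the MHC class II list at 27358, 34224 and 38063 CPM. The middle value of the resident list was uneven between libraries. It was 16349 CPM in 1 cell of HFD replicate 1 with 1468 UMIs. It was 1396 CPM in SD replicate 1 (1 cell) and 1784 CPM in HFD replicate 2 (2 cells). The 3 cells with none were from HFD replicate 1, and 1 of the 4 cells with 1 to 4 UMIs was from an SD library. The split is a range of counts and no cell type.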

How the data were processed

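Single-cell counts of UMIs, the table of cell names and the library key were used as deposited by the authors; per the submitters' processing notes the data were made with Cell Ranger 3.1.0 on mm10. The percent of mitochondrial UMIs per cell was taken from the deposited cell table. How cells were filtered before deposit is not given in the sources used here. Beyond that, neither another filter nor a doublet caller was applied. Cell types are the deposited names; libraries keyed as control were taken as SD. UMIs were summed per library and tested with edgeR 4.0.16 (filterByExpr, TMM, robust quasi-likelihood test, Benjamini-Hochberg over all genes kept, threshold 0.05) in R 4.3.3; the fit was tested on simulated data. Shares have exact 95% intervals. Thinning used the hypergeometric share. Named genes were the 3 chains, up to 4 of each complement and factor list with most macrophage UMIs, the 10 and 8 genes most like C1q, and members of the resident, monocyte, dendritic and MHC lists with at least 30 UMIs. Some genes that this rule names are not reported here. Members and lists were chosen with earlier results of these data known. Sequences came from GENCODE vM21 and RefSeq. Alternatives included RLE scaling, DESeq2 1.42.0, no filter, a replicate block, a project term and leaving out libraries or shallow cells.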

Additional observations from a re-analysis of the deposited data

How the results depend on the processing

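All 36 refits of a chain in macrophages were below 0 and none was called (lowest edgeR or DESeq2 adjusted p 0.348). Without each library in turn the log2 fold change ran from -0.69 to -0.42 for C1qa, -0.76 to -0.24 for C1qb and -0.69 to -0.03 for C1qc. The count of genes called in macrophages was 1; it was 4 with no filter, 5 with the replicate block and 2 to 26 when a library was left out. The count in all cells was 5; it was 9 with DESeq2, 47 with no filter, 64 with the replicate block, 57 with the project term and 0 to 54 when a library was left out. Leaving out a library leaves an arm with 1 sample in macrophages, which is then assumed to vary like the other group.

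In all cells 5 of 33 refits of a chain reversed, none called: C1qa to -0.017 under the replicate block and -0.004 without SD replicate 3, and C1qa, C1qb and C1qc to -0.13, -0.18 and -0.14 without HFD replicate 1. Without each library in turn the ranges were -0.13 to 0.65 for C1qa, -0.18 to 0.98 for C1qb and -0.14 to 0.91 for C1qc. The cause was not tested. Same-numbered libraries did not deviate together in macrophages (correlation -0.07) and did so only for replicate 1 in all cells (0.30; replicate 2, -0.06), so the numbers were not taken to pair the libraries, although both replicate 1 libraries also share project number 4101; the replicate block gave -0.56, -0.51 and -0.38 for C1qa, C1qb and C1qc in macrophages.

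All 24 alternatives for the chain levels stayed within 1 SD of the values given. Most of them left out 1 library, which cannot move a mean over 5 libraries by 1 SD, so their outcome was fixed in advance. Another left out the 3 deep cells with at most 1 C1q UMI. That choice was made after seeing the data, as was the refit without cells under 1000 UMIs. The share of macrophages with all 3 chains was 65.7%, and 90.7% among those of at least 1000 UMIs, where depth limits it less. Depth also limits SD replicate 3, whose macrophages had a median of 147.5 UMIs.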
